A study of Mus musculus with 31 samples.

Results

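Baiap3 and 8 other genes of mouse chromosome 17 (Eme2, Anks1, Gnptg, Gfer, Spsb3, Tsr3, Cramp1l and Pdpk1) were read in thymus and thymic tumors of mice that differ at Stk38, a gene of the same chromosome. Stk38 encodes the protein kinase NDR1. The 9 genes were picked by name from a comparison of KO with WT thymus in these same arrays, with the tumor values also known, and all 17 probe sets that name them were kept and read separately. They stand among 45100 probe sets with values, which name 18193 genes. The thymus differences therefore chose the genes and are given as a description without a test. Tests of these genes are kept to the tumors and to tumor against thymus. The choice knew the tumor values too, so p-values of tumor genotype comparisons for these genes are not independent support.

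The series held 31 Affymetrix GeneChip arrays of total RNA from C57BL/6 mice. Untreated, normal thymus came from mice labelled NDR1+/+ (WT), NDR1+/- (heterozygous, HT) and NDR1-/- (KO), with 4 arrays per genotype, 2 from females and 2 from males. Thymic tumors came from mice of the same 3 genotypes given 100 mg/kg of the alkylating mutagen ENU (N-ethyl-N-nitrosourea). They were taken when a tumor developed or at 9 months from the dose. There were 5 WT tumors, all from females, 7 HT tumors and 7 KO tumors, the last 2 groups with 6 females and 1 male each. How the mutant allele was made, how long it had been crossed to C57BL/6 and the age at dosing are not stated in the sources used here. Titles name thymocytes and tumor cells, whereas the tissue labels name thymus. The labels do not say that each array is a separate animal, so p-values measure the spread between these samples. In such bulk RNA, fewer cells that express a gene and less of its RNA per cell cannot be told apart. Whether sequence variants between the mutant and WT chromosomes lie under the probes was not known here and was not tested. A difference in signal below therefore need not be a difference in the amount of RNA.

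Genes near each other on a chromosome tend to be inherited together and are then called linked. The 9 genes belong to different pathways. Baiap3 encodes a relative of the Munc13 proteins, which prepare secretory vesicles for fusion, and is known from neuroendocrine cells and neurons. The others serve lysosomal sorting (Gnptg), mitochondrial protein import (Gfer), DNA repair (Eme2), chromatin (Cramp1l), ribosome maturation (Tsr3), receptor signalling (Anks1), ubiquitin ligation (Spsb3) and growth factor signalling (Pdpk1).

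Values are log2(intensity + 1) of the deposited intensities, and each probe set is compared only with itself. A probe set was tested if its mean over the arrays was above 3.56, the 25th percentile of all probe set means, which left 33825 probe sets, including all 17 of these genes. The 3'/5' log2 ratio of control transcripts, which rises with RNA degradation, was 0.26 to 0.50 in thymus and 0.18 to 4.87 in tumors. The mean of 9 measured T cell markers was 13.15 to 13.37 in thymus and 10.13 to 12.58 in tumors. The mean of 9 B cell and plasma cell markers reached at most 7.92 in thymus and was above 11 in 4 tumors, HT 01 (12.42), HT 03 (11.13), KO 04 (12.52) and KO 06 (12.84). Fibroblast markers (8 of 8 measured) had means of 6.38 to 8.89 in WT tumors, 4.51 to 7.44 in HT tumors and 5.23 to 8.64 in KO tumors. Neutrophil markers (8 of 8) had means of 6.50 to 8.31 in WT thymus, 5.83 to 7.34 in HT thymus and 5.06 to 6.51 in KO thymus. The part of these differences in the values below was not tested, apart from fits with the 3'/5' ratio and without the 4 tumors of highest B cell markers.

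Stk38, the mutated gene, was read first. Its probe set of highest mean, 1416252_at, gave 11.91, 12.03, 11.69 and 11.81 in WT thymus, 11.48, 11.58, 11.37 and 11.33 in HT thymus, and 11.02, 11.34, 10.64 and 10.67 in KO thymus. The KO thymi were below all WT thymi, and their highest value lay inside the HT range. The other Stk38 probe sets gave KO minus WT thymus of 0.27 (1439938_at) and -0.09 (1431303_at). In tumors it gave 11.42, 12.42, 11.38, 12.47 and 13.04 for WT, and a median of 12.10 for HT (10.71 to 12.77). The KO tumors fell apart into 3 with low values, KO 01 (9.22), KO 02 (8.73) and KO 05 (9.52), and 4 inside or above the WT range, KO 03 (12.84), KO 04 (12.77), KO 06 (13.08) and KO 07 (11.47). The signal thus went against the label in 4 of the 7 tumors, so "KO tumor" below stands for a tumor labelled KO. The place of this probe set in the transcript relative to the mutation was not known here, so its signal checks the label only in part.

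For KO minus WT thymus 21 probe sets had an adjusted p under 0.05 in limma, 0.0621% of all tested. Of these, 17 lay on chromosome 17, some of them probe sets of the 9 genes. The 9 genes were picked from this comparison, so nothing is read from their presence among the 21. All 9 genes lie on the same side of Stk38, which describes a list picked by name and not all differences on the chromosome. In the gene order of a RefSeq gene table (assembly GRCm38.p6), and counted in protein-coding genes from Stk38, Anks1 was 24 places away. The others stood together farther out, with Baiap3 at 101, Tsr3 at 102, Gnptg at 103, Cramp1l at 113, Eme2 at 118, Spsb3 at 119, Gfer at 133 and Pdpk1 at 159. Baiap3, Tsr3 and Gnptg are thus direct neighbours, as are Eme2 and Spsb3. Between Pdpk1 and Stk38, 120 other genes had tested probe sets, 196 in all. In limma 0 of these passed an adjusted p of 0.05 for KO minus WT thymus, against 0.0621% of all probe sets tested. The 9 genes were picked from that comparison, so this 0 is in part set by the choice. In each genotype comparison of tumors 0 of them passed too, where 0% of all passed.

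**Figure D1:**
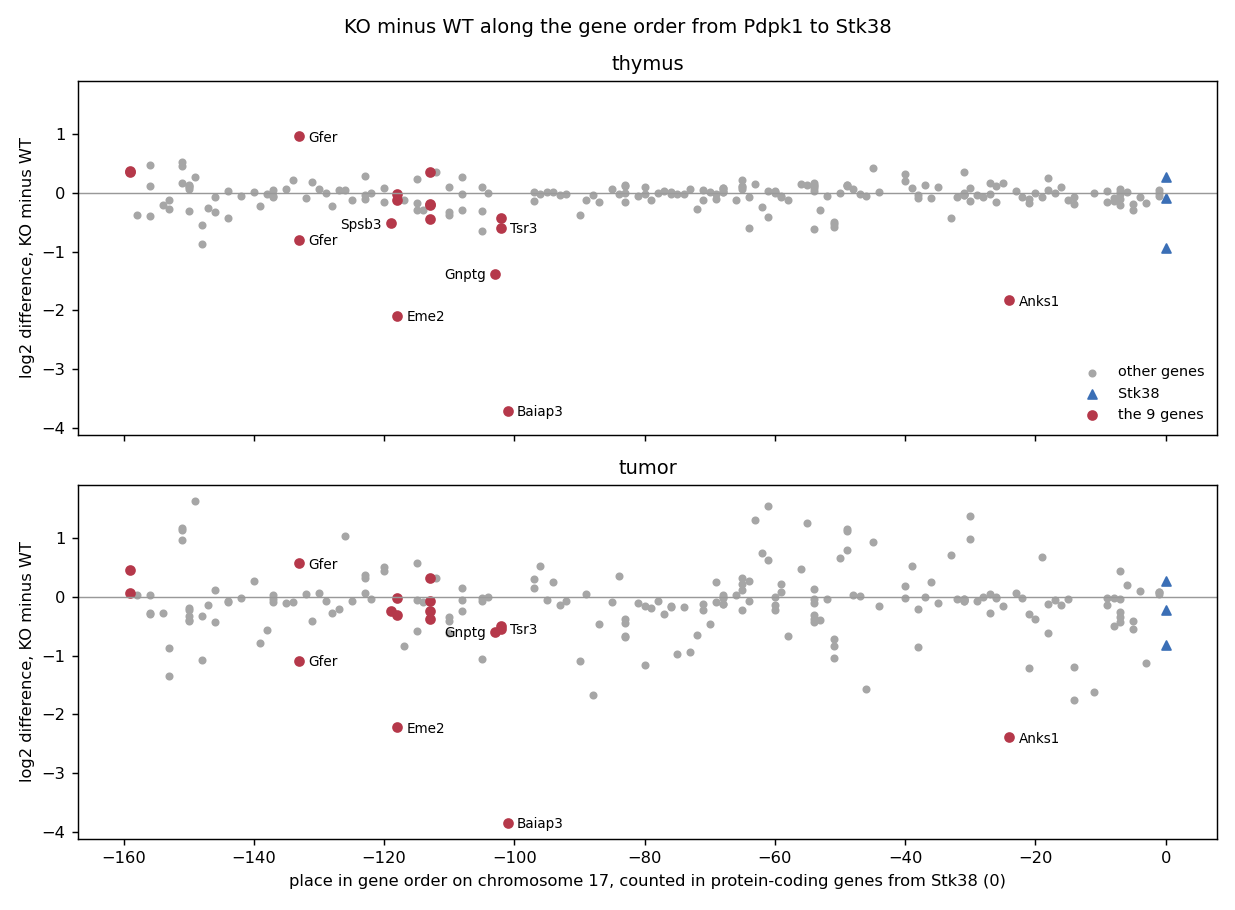
Log2 difference of KO minus WT (vertical axis) for each tested probe set, in thymus (top) and tumors (bottom), by place in the chromosome 17 gene order counted from Stk38 (horizontal axis). In thymus Baiap3, Eme2, Anks1 and Gnptg lie below all other genes of the stretch, whose differences ran from -0.87 to 0.53; in tumors the other genes spread from -1.75 to 1.63, and Baiap3, Eme2 and Anks1 lie below them.

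Baiap3 had 1 probe set, 1427509_at, and the widest difference of the 9 genes. Its promoter is shown because this gene carries the finding. It is the stretch of 250 bases before the RefSeq start, at chr17:25256365-25256614 on the minus strand (GRCm38.p6), printed 5′ to 3′ along the gene with CG dinucleotides in capitals. It overlaps no other gene of the RefSeq table.
Baiap3 promoter: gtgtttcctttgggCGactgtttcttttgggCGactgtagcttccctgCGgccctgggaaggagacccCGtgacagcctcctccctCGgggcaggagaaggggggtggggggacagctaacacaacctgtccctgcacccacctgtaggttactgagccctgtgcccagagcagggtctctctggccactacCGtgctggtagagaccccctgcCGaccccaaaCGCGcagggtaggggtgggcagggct
The stretch held 9 CG dinucleotides, against a median of 6.0 over 32851 RefSeq mouse promoters of the same length, and was 64.4% G or C, against a median of 52.4%. A search of both strands for GGGCGG (the GC box, in 32.7% of all promoters), CCAAT (33.8%) and TATAAA (the TATA box, 12.4%) found none of these letters in it. For Tsr3 no promoter window was available. Windows of the remaining genes overlap an annotated gene and are not printed. They held 34 and 36 CG dinucleotides for Anks1, 33 for Gfer, 32 for Eme2, 25 for both of Gnptg, 22 for Cramp1l, 6, 12, 13 and 16 for Spsb3, and 1 and 31 for Pdpk1.

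Baiap3 followed the number of mutant Stk38 alleles in thymus. It was 7.37, 7.41, 7.74 and 7.16 in WT thymus, 6.45, 6.13, 6.58 and 6.28 in HT thymus, and 3.66, 3.47, 3.94 and 3.75 in KO thymus. The 3 genotypes did not overlap, and the KO values lay around the filter limit of 3.56, at the low end of the scale. HT was 1.06 (SE 0.135) below WT and KO was 3.72 below WT (means 7.42 ± 0.239, 6.36 ± 0.196 and 3.70 ± 0.192; SD, n = 4 each). On the intensity scale HT thymus stood at 47.6% and KO thymus at 7.0% of WT, so HT covered 56.4% of the way from WT to KO. A pseudocount of 16 in place of 1 gave a KO minus WT difference of -2.73. Neuroendocrine markers (7 of 8 measured) stayed between 3.36 and 3.78 in mean on all 31 arrays, near the filter limit.

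In tumors Baiap3 was again low in the KO group, while the HT mean lay 0.22 below the WT mean. WT tumors gave 6.90, 7.69, 8.64, 7.79 and 9.44. HT tumors had a median of 7.67, from 6.37 to 9.95, and KO tumors a median of 3.92, from 3.40 to 6.84. The KO and WT tumors did not overlap, but the highest KO tumor, KO 07, came within 0.1 of the lowest WT tumor and above the HT tumors at 6.37 and 6.47. The other 6 KO tumors lay between 3.40 and 4.80, from just below to somewhat above the KO thymus range of 3.47 to 3.94. Means were 8.09 ± 0.977 for WT (SD, n = 5), 7.87 ± 1.32 for HT (n = 7) and 4.31 ± 1.21 for KO (n = 7).

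A 2-sided exact permutation test of single values gave KO minus WT of -3.78 with p = 0.00253, the smallest p this design allows, and 0.0038 after adjustment over the 3 genotype pairs. KO minus HT was -3.56 (exact permutation p = 0.00175, adjusted 0.0038), and HT minus WT was -0.22 (exact permutation p = 0.737). These tests ask about Baiap3 alone, which was picked with its tumor values known, so their p-values are not independent support. In limma over all 33825 probe sets the KO minus WT difference in tumors was -3.85 (SE 0.698, unadjusted p = 3.85e-05, adjusted p = 0.971) and KO minus HT was -3.56 (SE 0.626, adjusted p = 0.927). Neither passed. In 1 fit of all 31 arrays, which takes in the smaller spread of the thymi, both passed (adjusted p = 0.0101 and 0.0064). Over the other alternatives the adjusted p for KO minus WT ran from 0.0806 to 1.0. The slope per mutant allele in tumors was -2.04 (SE 0.411, adjusted p = 0.984 in limma).

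Baiap3 and Stk38 did not move together among the KO tumors. KO 03, KO 04 and KO 06, whose Stk38 signal was 12.77 to 13.08, had Baiap3 at 3.40, 3.81 and 4.80. KO 01, KO 02 and KO 05, with Stk38 at 8.73 to 9.52, had Baiap3 at 3.97, 3.92 and 3.42. KO 07 had the highest 3'/5' log2 ratio of the KO tumors, 3.17, and HT 07, with the highest Baiap3 of all arrays (9.95), had the highest ratio, 4.87. With the 3'/5' ratio in the fit KO minus WT was -4.05, and without KO 07 it was -4.32. Without the 4 tumors of highest B cell markers it was -3.87, and in female arrays only -3.72.

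**Figure D2:**
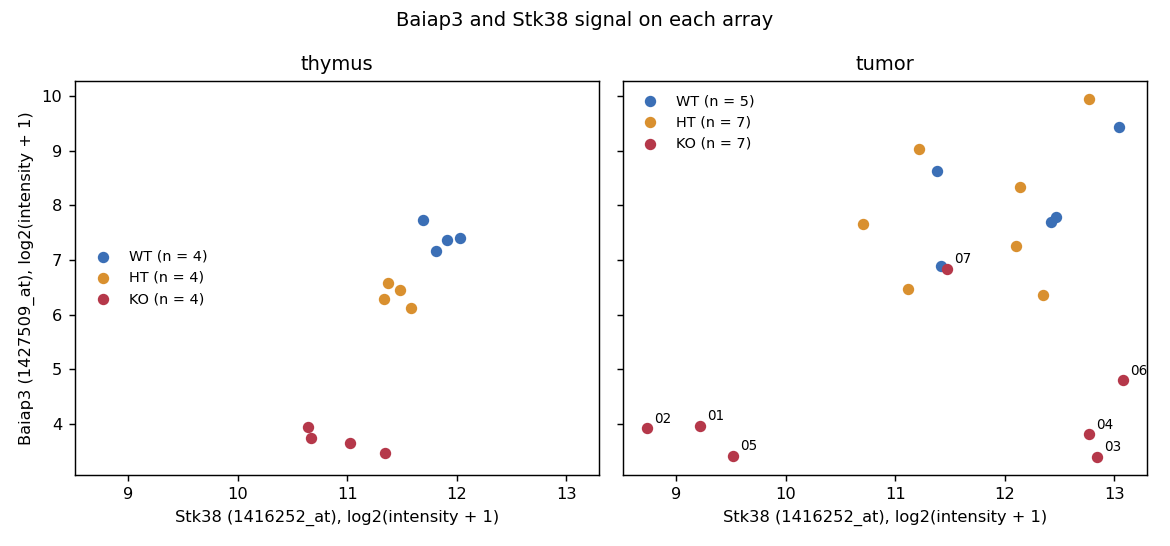
Baiap3 signal (1427509_at, vertical axis) against Stk38 signal (1416252_at, horizontal axis), both as log2(intensity + 1), with 1 point per array, thymus on the left and tumors on the right; KO tumors carry their replicate numbers. In thymus both signals step down by genotype, and in tumors 6 of the 7 KO points stay at or below 4.80 for Baiap3 over the whole range of Stk38.

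Ordered by mean, the Baiap3 levels were WT tumor (8.09), HT tumor (7.87), WT thymus (7.42), HT thymus (6.36), KO tumor (4.31) and KO thymus (3.70). The first 3 groups in this order differed from their neighbours by less than the SD of the tumor groups, as did the last 2. WT and HT thymus did not overlap. HT thymus and KO tumor differed by more than either SD, with KO 07 above all HT thymi. Tumor minus thymus, as the mean over genotypes, was 1.03 (SE 0.394) and did not pass (adjusted p = 0.0623 in limma). Its adjusted p over the alternatives ran from 0.0402 to 0.339.

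Gnptg encodes the gamma subunit of the enzyme that puts the mannose 6-phosphate tag on lysosomal enzymes. Its probe set 1436526_at gave 7.89, 7.99, 8.17 and 7.93 in WT thymus, 7.18, 7.41, 7.80 and 7.34 in HT thymus, and 6.10, 6.59, 6.98 and 6.79 in KO thymus. The 3 genotypes did not overlap. KO minus WT was -1.38 in thymus, and intensity was 68.2% of WT in HT and 39.1% in KO. WT tumors gave 6.65, 8.07, 6.90, 7.01 and 6.97, and HT tumors had a median of 7.30 (6.76 to 7.78). KO tumors had a median of 7.16, from 5.23 to 7.34. Thus 5 of the 7 KO tumors lay within 0.2 of the WT range, and KO 01 (5.24) and KO 03 (5.23) lay below all WT and HT tumors. The tumor difference of KO minus WT was -0.60 (SE 0.395) and did not pass in limma (adjusted p = 0.971). It was -0.36 without WT 02, without KO 01 or without KO 03, and reached -0.75 without KO 04.

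Anks1 encodes an adaptor with ankyrin repeats that binds Eph receptors, and it is the gene of the 9 nearest to Stk38. The probe set 1452204_at gave 7.85, 8.36, 7.97 and 7.91 in WT thymus, 7.40, 7.34, 7.48 and 7.03 in HT thymus, and 6.30, 6.19, 6.52 and 5.75 in KO thymus. The genotypes did not overlap, and HT lay 54.5% of the way from WT to KO in intensity. WT tumors gave 7.65, 10.58, 9.88, 9.66 and 10.24, so 4 of 5 were above every thymus. HT tumors had a median of 8.03 (6.04 to 9.61) and KO tumors a median of 6.71 (6.18 to 8.6). The HT and KO ranges overlapped widely, and each overlapped WT through WT 01 (7.65) alone. The differences from WT in tumors were -2.05 (SE 0.704) for HT and -2.39 (SE 0.704) for KO, with adjusted p of 1.0 and 0.971 in limma. KO minus HT was -0.34 (SE 0.632, adjusted p = 1.0).

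Eme2 encodes a partner of the endonuclease Mus81, which cuts branched DNA at stalled replication forks. Of its 3 probe sets, 1460628_at gave 7.12, 7.51, 7.63 and 7.70 in WT thymus, 6.81, 6.49, 7.0 and 7.46 in HT thymus, and 5.20, 5.16, 5.95 and 5.27 in KO thymus. HT overlapped WT through 1 array, and KO lay below both. KO minus WT was -2.09 in thymus. WT tumors gave 5.37, 8.54, 7.18, 7.74 and 9.08, HT tumors had a median of 6.27 (4.68 to 8.52), and KO tumors a median of 5.25 (4.46 to 6.54). KO tumors overlapped WT through WT 01 alone. KO minus WT in tumors was -2.22 (SE 0.670) and did not pass in limma (adjusted p = 0.971). The other Eme2 probe sets, 1429034_at and 1442853_at, stayed between 3.36 and 5.28 on all arrays, and their KO minus WT differences were -0.02 and -0.13 in thymus and -0.02 and -0.30 in tumors. The difference of Eme2 therefore rests on a single probe set, and the gene's mean over its 3 probe sets gave -0.75 in thymus.

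Gfer encodes a sulfhydryl oxidase that helps fold proteins imported into the mitochondrial intermembrane space. Its 2 probe sets went opposite ways. In thymus 1452272_a_at gave 8.73, 8.70, 8.61 and 8.72 for WT, 8.30, 8.33, 8.58 and 8.41 for HT, and 7.82, 7.53, 8.14 and 8.07 for KO. It stepped down by genotype without overlap. In contrast, 1426995_a_at gave 6.98, 7.23, 7.53 and 7.04 for WT, 7.62, 7.58, 8.18 and 7.67 for HT, and 8.27, 7.78, 8.21 and 8.39 for KO, a step up in which HT and KO overlapped. KO minus WT was -0.80 for the former and 0.97 for the latter, and the mean of both gave 0.08. Reading them as 1 gene would hide both differences.

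In tumors the 2 Gfer probe sets kept these signs, with KO minus WT of -1.09 (SE 0.311) for 1452272_a_at and 0.57 (SE 0.418) for 1426995_a_at, neither past the threshold in limma (adjusted p = 0.971 each). For 1452272_a_at the WT tumors gave 8.35, 9.48, 9.47, 9.63 and 9.69, and KO tumors had a median of 8.15 (7.91 to 8.68). The KO tumors lay below the WT tumors apart from WT 01. The difference between both probe sets on the same array, 1426995_a_at minus 1452272_a_at, was then read, a measure chosen after the values were seen. It cancels what both share on an array, and its change between arrays is what can be read. WT thymi had a mean of -1.49 ± 0.301, HT thymi of -0.65 ± 0.162 and KO thymi of 0.27 ± 0.155 (SD, n = 4 each), with no overlap between genotypes.

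In tumors this difference was -0.26, -1.82, -1.56, -0.27 and -1.52 for WT. HT tumors had a median of -0.60 (-2.69 to 0.31) and KO tumors a median of 0.41 (0.06 to 1.60). All 7 KO tumors were above 0 and above all WT tumors, including KO 03, KO 04, KO 06 and KO 07, whose Stk38 signal was not low. Of the HT tumors, HT 02 (0.31) reached the KO range. On average KO exceeded WT by 1.68 and HT by 1.49, and HT exceeded WT by 0.19, given without a test since the measure was chosen on these values. With each tumor left out in turn, KO minus WT ran from 1.49 to 1.88.

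**Figure D3:**
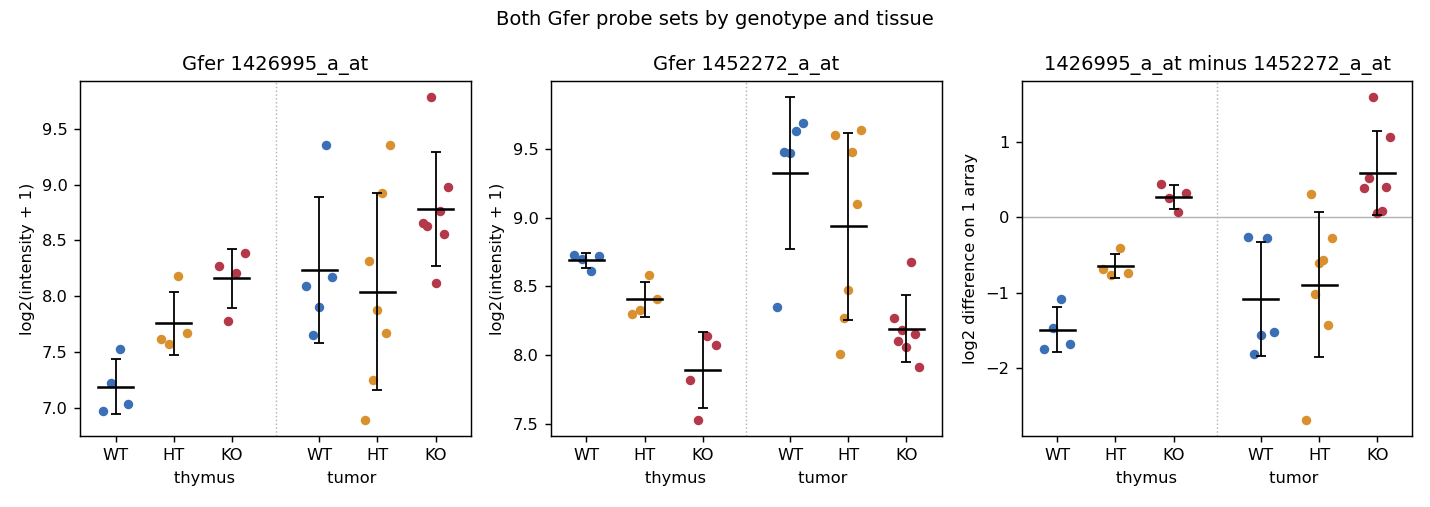
Both Gfer probe sets as log2(intensity + 1) and their difference on each array (vertical axes) by genotype, thymus left and tumor right in each panel; points are arrays, bars the mean and SD. The left probe set rises and the middle one falls from WT to KO thymus, and in the right panel all KO arrays of both tissues lie above 0 and all WT arrays below it.

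Spsb3 encodes a substrate receptor of a Cullin-5 ubiquitin ligase. Its probe set 1417891_at ran from 10.12 to 10.26 in WT thymus. HT thymi had a mean of 10.05 and a highest value of 10.10, and KO thymi ran from 9.55 to 9.80, a small stepwise order without overlap. KO minus WT was -0.51 in thymus and -0.24 (SE 0.216) in tumors. All 19 tumors, from 8.40 to 9.53, were below every thymus. Spsb3 fell by 1.0 from thymus to tumors (SE 0.121, adjusted p = 1.4e-06 in limma).

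Tsr3 encodes an enzyme that modifies a base of the small ribosomal subunit RNA. Its probe set 1437969_s_at ran from 9.43 to 9.61 in WT, 9.32 to 9.53 in HT and 8.73 to 9.16 in KO thymus. KO lay below both, and WT and HT overlapped. KO minus WT was -0.60 in thymus and -0.54 (SE 0.171) in tumors (adjusted p = 0.971 in limma). The dimmer probe set 1431132_x_at gave -0.42 and -0.50.

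Cramp1l encodes a chromatin protein related to the fly protein Cramped. Its 4 probe sets did not go one way. KO minus WT in thymus was -0.45 for 1456042_s_at, -0.19 for 1420326_s_at, -0.20 for 1422413_at, which lay near the filter limit, and 0.36 for 1420325_at. In tumors the differences were -0.37, -0.25, -0.07 and 0.32, in the same order, with SE from 0.164 to 0.383. For 1456042_s_at the HT thymi (10.87 to 11.20) overlapped the KO thymi (10.73 to 11.16), while WT thymi ran from 11.19 to 11.59. KO minus HT in thymus was -0.10 (SE 0.0771), so the means were in allele order but the HT and KO arrays did not separate.

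Pdpk1 encodes PDK1, the kinase that switches on Akt, S6 kinase and SGK by phosphorylation. It was the gene of the 9 with higher signal in KO thymus on all its probe sets. For 1415729_at the ranges were 11.60 to 11.77 in WT, 11.72 to 11.90 in HT and 11.87 to 12.17 in KO thymus. WT and KO did not overlap, and HT overlapped both. KO minus WT was 0.36 in thymus and 0.46 (SE 0.310) in tumors, and for 1416501_at it was 0.38 and 0.07. All tumors (9.77 to 11.57) lay below every thymus on 1415729_at, which fell by 0.98 from thymus to tumors (SE 0.175, adjusted p = 0.000258 in limma). The mean over both Pdpk1 probe sets gave -0.25 and did not pass (adjusted p = 0.139), since 1416501_at was 0.47 (SE 0.308) higher in tumors.

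**Figure D4:**
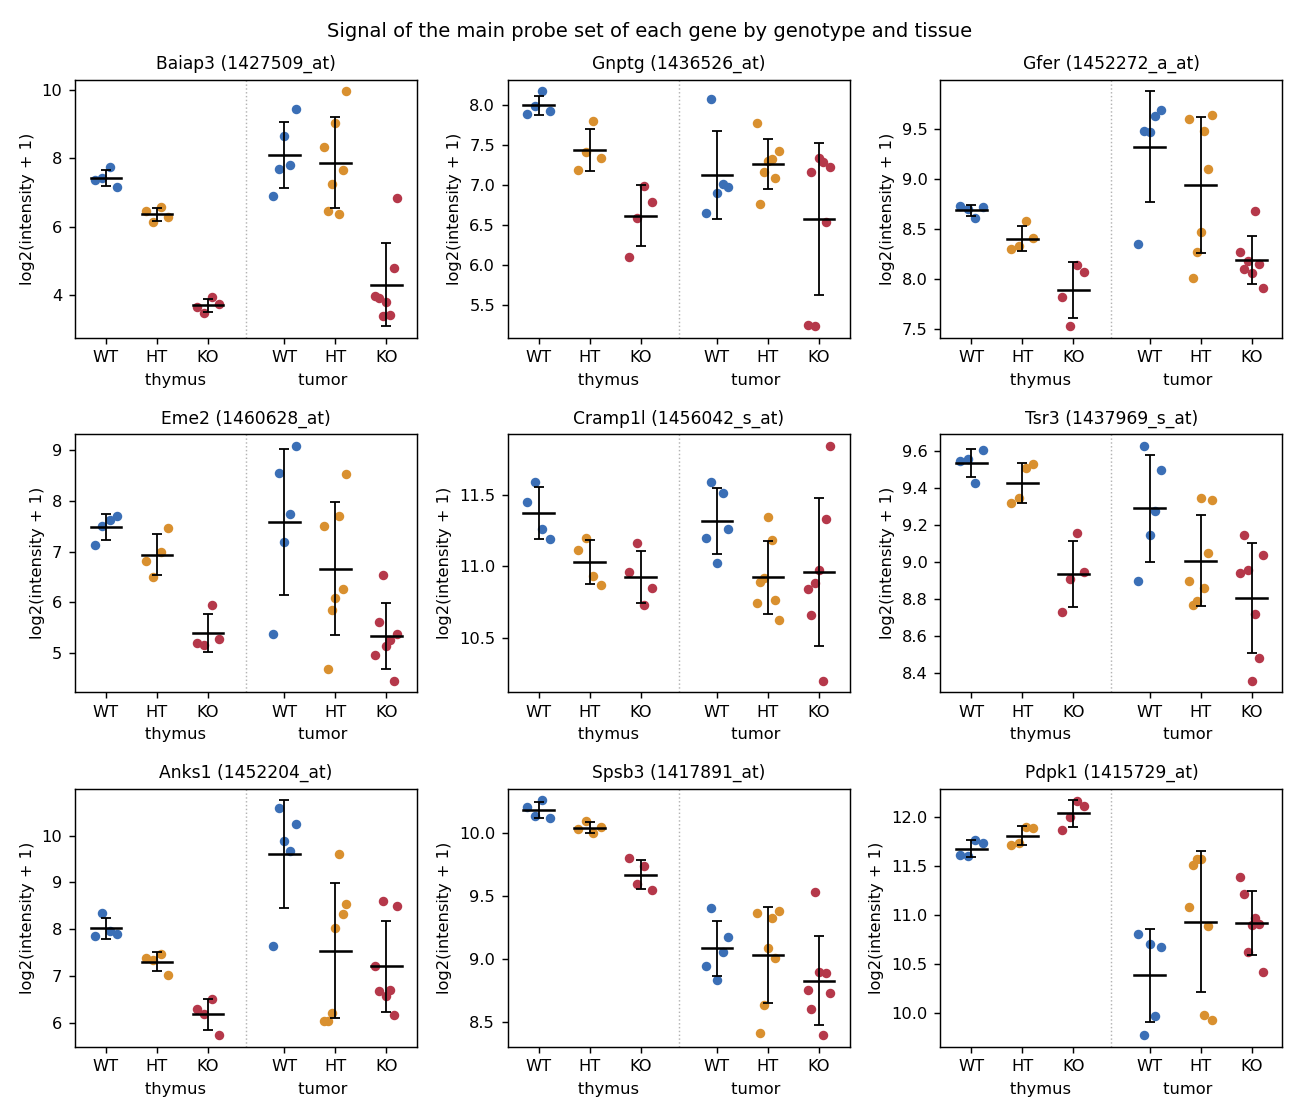
Log2(intensity + 1) of the probe set of highest mean for each gene (vertical axes) by genotype, thymus left and tumor right in each panel; points are arrays, bars the mean and SD. Baiap3, Gnptg, Gfer, Anks1 and Spsb3 step down from WT over HT to KO thymus without overlap, and among tumors KO and WT separate for Baiap3 alone.

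Counted over the 17 probe sets, the thymus order was as follows. The HT mean lay between the WT and KO means for 14, against 27.5% of all probe sets tested. KO and WT arrays did not overlap for 11 (1.53% of all), HT and WT for 7 (2.11%) and KO and HT for 8 (2.26%). All 3 genotypes separated in allele order for 5, Baiap3, Anks1, Gnptg, Gfer 1452272_a_at and Spsb3, against 0.0296% of all. These counts come from the contrast that chose the genes, and nothing is read from them.

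In tumors KO and WT arrays did not overlap for 1 of the 17, Baiap3, against 0.106% of all probe sets tested. HT and WT did not separate for any (0.112% of all), nor did KO and HT (0.0177%). The HT mean lay between the WT and KO means for 10, against 37.8% of all. KO minus WT had the same sign in thymus and in tumors for 17 of 17, against 54.9% of all probe sets tested, but the tumor differences of Eme2 1429034_at, Pdpk1 1416501_at and Cramp1l 1420325_at changed sign when single tumors were left out. The median KO minus WT difference of the 17 was -0.42 in thymus and -0.30 in tumors, where the medians of all probe sets were -0.006 and -0.007. The genes were picked with the tumor values known, and some probe sets share a gene. Nothing is read from these tumor counts and medians either.

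In limma 0 of the 17, and 0% of all 33825 probe sets, passed for KO minus WT, HT minus WT, KO minus HT or the slope per allele in tumors. At an unadjusted p under 0.05 stood 5 of the 17 for KO minus WT (Baiap3, Eme2 1460628_at, Anks1, Gfer 1452272_a_at and Tsr3 1437969_s_at), against 1007 of all (2.98%). The same 5 did for the slope, against 1021 of all (3.02%). For HT minus WT it was 1, Anks1, against 786 of all (2.32%). For KO minus HT it was 3, Baiap3, Eme2 1460628_at and Gfer 1452272_a_at, against 365 of all (1.08%). The genes were picked with these tumor values known, so nothing is read from the counts. The spread between tumors was several times that between thymi, as the SE of the Baiap3 differences shows (0.698 against 0.135).

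**Figure D5:**
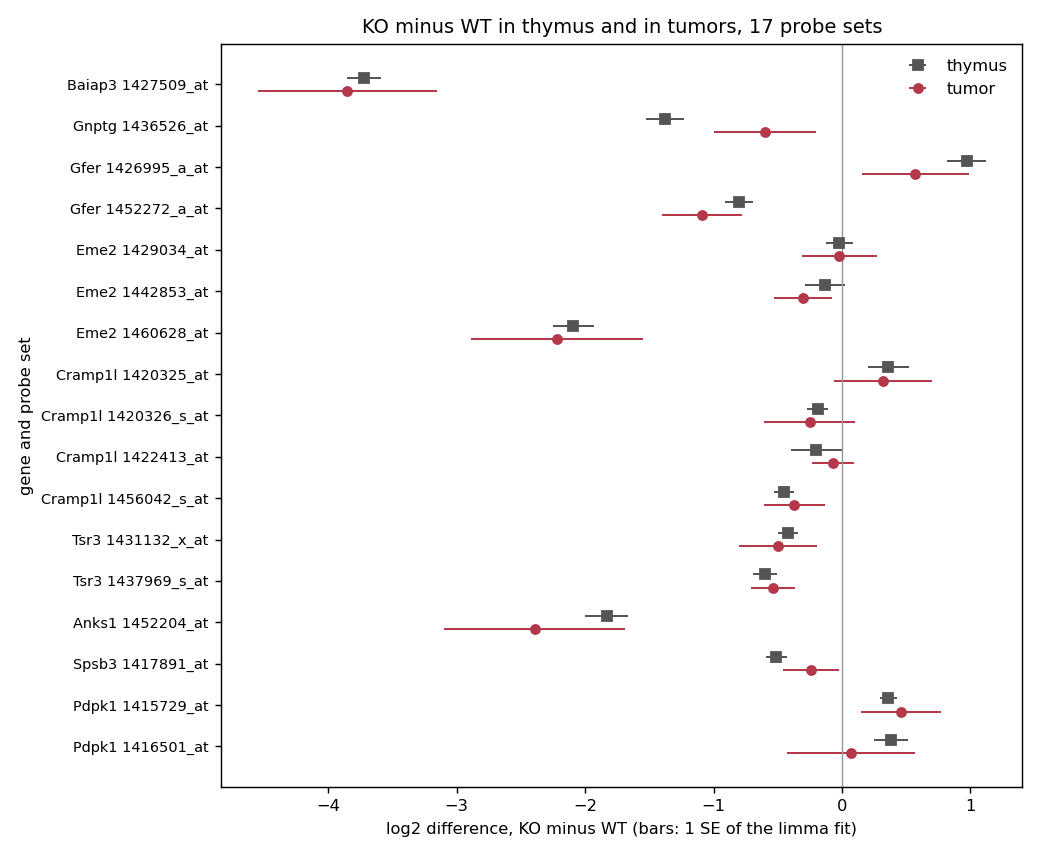
Log2 difference of KO minus WT with its SE from the limma fit (horizontal axis) for each of the 17 probe sets (vertical axis), in thymus (squares) and tumors (circles). Thymus and tumor values lie on the same side of 0 for every probe set, with wider error bars in tumors, and Baiap3, Eme2 1460628_at and Anks1 stand farthest from 0 in both.

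Tumor minus thymus is the contrast that the choice of genes did not use. Of the 17 probe sets 4 passed, against 20.9% of all. Spsb3, Pdpk1 1415729_at and Cramp1l 1422413_at were lower in tumors and Gfer 1426995_a_at was higher. Gfer 1426995_a_at rose by 0.69 (SE 0.242, adjusted p = 0.0433 in limma) and Cramp1l 1422413_at fell by 0.32 (SE 0.115, adjusted p = 0.0492). Both were at the edge of the threshold, and with the 3'/5' ratio in the fit they gave 0.36 and -0.25 and did not pass (adjusted p = 0.282 and 0.186).

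The other genes between Pdpk1 and Stk38 were read in the same way. Of their 196 probe sets, 27 (13.8%) had an unadjusted p under 0.05 for KO minus WT in thymus, against 4.10% of all tested. For HT minus WT thymus it was 10.7% against 5.71%, and for KO minus HT thymus 8.16% against 6.46%. For KO minus WT tumors it was 12 (6.12%), against 2.98%. Their median differences were -0.011 in thymus and -0.066 in tumors. The smallest tumor p values for KO minus WT belonged to Zfp523 (-1.21), BC003965 (-1.06), Abca3 (1.14), Decr2 (1.32) and Pgap6 (1.55), each with an adjusted p of 0.971. Of these 5, 4 had the same sign in thymus, Zfp523 (-0.16), BC003965 (-0.65), Abca3 (0.46) and Decr2 (0.16), whereas Pgap6 was at -0.41 there. For HT minus WT tumors the smallest p values belonged to Zfp523, Hagh, Fam234a, Metrn and Crebrf, and for KO minus HT to Ppard, Nme4, Noxo1, Bak1 and Uqcc2, all with an adjusted p of 1.0.

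The partners of the 9 genes were read from lists chosen for each gene's role. Of 9 lists, with 3 to 10 genes measured in each, 0 of 130 probe sets passed in limma in KO minus WT thymus or in any tumor genotype comparison. At an unadjusted p under 0.05 stood 6 for KO minus WT in thymus (4.62%, against 4.10% of all), 3 for KO minus WT in tumors (2.31%, against 2.98%) and 0 for HT minus WT and KO minus HT. The list medians of KO minus WT in tumors ran from -0.31 to 0.63, against -0.007 over all probe sets. In tumor minus thymus 33 of the 130 passed (25.4%), near the 20.9% of all probe sets. Of all probe sets tested 8.96% passed as higher in tumors and 12% as lower. Whether any list differs from these shares was not tested. Of the endonuclease genes around Eme2 (21 probe sets), 5 were lower in tumors, among them both Mus81 probe sets that passed (-1.88 and -1.01) and Ercc1 (-0.76). Of the kinases that PDK1 acts on (17 probe sets), 4 were lower, including 3 of Sgk3 (-5.1, -4.67 and -3.43), and 1 was higher, Sgk1 (0.98).

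Among genes of small subunit maturation around Tsr3 (22 probe sets), 6 were higher, including Tsr1 (1.36 and 0.85) and Nat10 (1.5), and 3 lower, including Emg1 (-0.73). Of the mannose 6-phosphate list around Gnptg (17 probe sets), 4 were higher, 3 of them Ctsb, a lysosomal protease (1.11, 0.83 and 0.46), and 2 lower, with Man2b1 at -2.06. In the Spsb3 list (21 probe sets) Spsb4 rose by 3.49 and 2.09, Cul5 rose by 1.13, and Elob was lower (-0.71). In the vesicle priming list of Baiap3 (8 probe sets), Unc13d, a Munc13 relative used by cytotoxic cells, was higher (1.08) and Rab27a lower (-1.29). Timm9 was higher (1.23) in the Gfer list and H1f2, a linker histone, lower (-0.95) in the Cramp1l list. The Eph receptor list of Anks1 had 0 of 9 probe sets past the threshold. The list medians of tumor minus thymus ran from -0.21 to 0.25, and the median over all probe sets was 0.022.

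Likeness to Baiap3 was measured as Pearson's r of log2 values over the 19 tumors, which share normalization and differ in RNA quality and genotype. Of the other genes' probe sets the highest were Angpt2 (0.72), 8430426J06Rik (0.70), Bbof1 (0.70), Fam71a (0.69) and Mlh3 (0.67). The lowest were Txn2 (-0.75), Ttc7 (-0.72), Dusp12 (-0.72), Atl1 (-0.67) and Cadm1 (-0.67). Of these 10, Ttc7 lies on chromosome 17. Over the 12 WT and HT tumors alone, r of the highest ran from 0.30 (Fam71a) to 0.68 (8430426J06Rik). That of the lowest ran from -0.70 (Ttc7) to -0.25 (Dusp12). Among the 9 genes themselves Eme2 1460628_at (0.66), Gfer 1452272_a_at (0.66), Tsr3 1437969_s_at (0.64), Gnptg (0.49) and Anks1 (0.47) were the most like Baiap3, and Gfer 1426995_a_at was at -0.35. The 9 genes were picked from their KO differences with the tumor values known. Their r over tumors of all genotypes is in part set by that choice, so nothing is read from it.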

How the data were processed

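The deposited table held 1 normalized intensity per probe set and array, made by the authors with GCRMA per the submitters' processing notes, with no version given. The values were linear, and all arrays had a median intensity of 20.0. Of the 34957 probe sets with a single gene name, 99.4% were found in the RefSeq table (GRCm38.p6), which gave gene order and the promoter sequence. Here log2(value + 1) was fitted with limma 3.58.1 in R 4.3.3 (lmFit, eBayes, sex as a covariate, Benjamini-Hochberg over the 33825 probe sets above the filter). Tumor genotypes were compared within 19 tumor arrays, thymus within 12, and tumor minus thymus over all 31. Exact permutation tests used scipy 1.17.1. The fits were tested on simulated data.

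The 9 genes, the partner lists and the tests were chosen with earlier results of these data known. The naming rule took all probe sets of the 9 genes and Stk38, up to 5 probe sets of smallest p per tumor comparison between Pdpk1 and Stk38, up to 4 per list that passed, and the 5 most and 5 least like Baiap3. The Gfer difference was chosen after its values were seen. Alternatives changed the pseudocount, filter, normalization, sex covariate, variance trend, arrays, RNA quality covariate, replicate block, probe set or gene level, and left out each array. Replicates came from separate samples in the labels, and the highest correlation between 2 arrays was 0.9957.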

Additional observations from a re-analysis of the deposited data

Results flagged for a closer look

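In 8 of 102 groups of arrays (17 probe sets in 6 groups) 1 array stood apart from the rest by Dixon's criterion, which chance meets in about 1 in 20 groups. Baiap3 in KO tumor 07 was 6.84, while the other KO tumors ran from 3.40 to 4.80; its 3'/5' log2 ratio was 3.17, and the part of RNA quality in this value was not tested. Gnptg in WT tumor 02 was 8.07, with the others at 6.65 to 7.01. Gfer 1452272_a_at in WT tumor 01 was 8.35, with the others at 9.47 to 9.69. Cramp1l 1420325_at in KO tumor 03 was 8.13, with the others at 5.49 to 6.49. In thymus Eme2 1460628_at was 5.95 in KO male 01 (others 5.16 to 5.27), Eme2 1442853_at was 3.72 in the same array (others 4.0 to 4.04), Eme2 1429034_at was 4.14 in WT female 02 (others 4.38 to 4.41) and Gfer 1426995_a_at was 8.18 in HT male 01 (others 7.58 to 7.67).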

How the results depend on the processing

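Baiap3 kept its direction for KO minus WT and KO minus HT in tumors under all alternatives run. In the fit of all 31 arrays both passed (-3.82 and -3.56), with 1 probe set called in each comparison. With each tumor left out in turn, Baiap3 HT minus WT ran from -0.68 to 0.05 in limma and from -0.57 to 0.11 in the exact test, the positive values arising without WT tumor 05, HT tumor 02 or HT tumor 05. The count called for tumor minus thymus, 7077, was 10860 with no sex covariate, 3018 in female arrays only and 3433 genes at gene level. Gfer 1452272_a_at in thymus turned to 0.08 at gene level. Small differences changed sign: Pdpk1 1416501_at KO minus WT in tumors was -0.06 with no sex covariate and in the fit of all arrays, -0.02 with the 3'/5' ratio, -0.11 with the replicate block and -0.33 to 0.29 with 1 array left out. Likewise Eme2 1429034_at ran from -0.16 to 0.18, and Cramp1l 1420325_at from 0.0 to 0.48. For tumor minus thymus, Eme2 1460628_at was -0.08 with no sex covariate, -0.40 with the 3'/5' ratio and -0.11 to 0.20 with 1 array left out. With the 3'/5' ratio Eme2 1429034_at was -0.03, Tsr3 1431132_x_at -0.13 and Cramp1l 1420326_s_at -0.06. Eme2 1429034_at was -0.01 without the 4 tumors of highest B cell markers and -0.01 to 0.10 with 1 array left out, and Cramp1l 1420325_at was 0.01 in female arrays. In female thymi Eme2 1429034_at and 1442853_at had KO minus WT of 0.15 and 0.09, and Eme2 1429034_at ran from -0.11 to 0.04 with 1 thymus left out. The causes were not tested.

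Sample numbers did not pair the tumors: 4 of 17 same-numbered pairs had correlated deviations above 0.1. In thymus 12 of 12 did, and 8 of 12 with sex removed. With sex removed, the 2 arrays of a genotype and sex deviate by opposite amounts. The 2 same-numbered pairs of a sex between 2 genotypes then share 1 correlation, so the 12 are not separate values. The replicate block left Baiap3 KO minus WT in thymus at -3.72 (SE 0.0986, against 0.135 without it). With the replicate block Baiap3 KO minus WT in tumors was -4.56 (adjusted p = 0.0806 in limma), HT minus WT -1.0 and KO minus HT -3.56, with 0 probe sets called in each; the block could not be fitted for tumor minus thymus. Precision is limited by how many arrays each group has.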
